A study of Mus musculus with 15 samples.

Results

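Titin and the proteins that anchor or decorate the cardiac sarcomere were followed through 9 genes fixed by name: Ttn, Myom1, Myom2, Mybpc3, Actn2, Ldb3, Tnnt2, Tpm1 and Myl2. Of these, 7 were analysed, with 50 named transcripts between them, and all 7 passed the filter on low values. Ttn and Mybpc3 were not analysed here. The 7 genes stood among 12380 named genes, of which 12258 were tested, and 47 of their transcripts stood among 28475 transcripts tested. The data came from hearts of male C57BL/6 mice, sequenced after rRNA depletion, in 3 groups of 5 libraries: Control, AngII (infused with angiotensin II, a hormone that acts on vessels, kidney and heart to raise pressure) and AngII+QDG (infused likewise and also given QDG, an abbreviation that the labels do not spell out). No mutant allele is named for any group. Dose, length of infusion and age of the animals are not stated. Levels are FPKM, fragment counts scaled to transcript length and library size, summed over the named transcripts of a gene. Assembled transcripts without a gene name, 7.72 to 10.7% of a library's FPKM, are not in these sums, so a low gene level may leave out message held there, which was not tested.

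The sarcomere is the contractile unit of heart muscle. Thin filaments of actin, tropomyosin and troponin are held at the Z-disc by alpha-actinin, and thick filaments of myosin are tied at the M-band by myomesins. Titin runs from Z-disc to M-band and acts as a spring and a ruler. Many of these genes switch exons between embryonic and adult heart or between heart and skeletal muscle, so a level summed per gene can hide a change of isoform. For that reason each member is described first per gene and then per transcript.

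Some facts of the libraries bear on every value below. Control and AngII libraries list 31685 transcripts each and AngII+QDG libraries 31734, with 29996 listed in all 15. The transcript set thus changes with QDG, and its part in the AngII+QDG comparisons cannot be told apart from that of QDG. Depth, read from the whole steps in which FPKM times length rose, was 51.6 to 78.3, in units of 1000000 fragments a library, if each step stands for 1 fragment. Short transcripts stood higher relative to long ones in Control, by the mean log2(FPKM + 1) level. The log2 level of 2277 protein-coding transcripts under 1000 nt minus that of 6255 of at least 3000 nt ranged from 0.98 to 1.40 over Control libraries, from 0.77 to 0.96 over AngII and from 0.64 to 0.89 over AngII+QDG, so the Control range lay above both others. Control 3 and Control 5 were highest on this measure, and 20.6% of listed transcripts were at 0 in Control 5 against 4.86 to 12.7% elsewhere. The members' transcripts were 184 to 5648 nt long, and the part of this imbalance in the results was tested only by the alternatives given after the report. Heart identity was seen in 10 of 12 cardiomyocyte markers with a value, none of them at 0 throughout. Their summed level spanned 19832 to 31178 FPKM over Control libraries, 18062 to 22120 over AngII and 16786 to 22342 over AngII+QDG. Of 11 skeletal muscle markers 1 had a value, Mybpc2, at 1.78 to 6.00 FPKM over the 15 libraries. Endothelial markers summed to medians of 183, 238 and 239 FPKM in Control, AngII and AngII+QDG. The fibroblast medians were 746, 716 and 774 FPKM and the macrophage medians 329, 283 and 261 FPKM in the same order. In AngII+QDG against Control 3 of 9 endothelial, 2 of 10 fibroblast and 2 of 9 macrophage markers were called higher (limma). Called lower there were 1 of 10 cardiomyocyte, 1 of 6 atrial cardiomyocyte and 1 of 5 blood markers. Over all genes 16.1% were called higher in that comparison and 3.31% lower. The part of these cell types in the results below was not tested. In pieces of tissue, fewer cardiomyocytes and less sarcomere RNA per cardiomyocyte cannot be told apart.

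Per length, the light chain gene Myl2 was the highest of the 7, with a mean of 7043 FPKM over all libraries (rank 14 of the named genes). Tpm1 followed at 5703 FPKM and Tnnt2 at 4472 FPKM. Ranges over libraries overlapped between neighbours in this order for these 3 genes. Next came Actn2 at 527 FPKM, and its highest library (659.8 FPKM) lay below the lowest Tnnt2 library (899 FPKM). Ldb3 stood at 188 FPKM, Myom1 at 143 FPKM and Myom2 at 60.5 FPKM. The Ldb3 range, 121 to 243 FPKM, did not reach that of Actn2 but overlapped that of Myom1. Together the 7 genes held 1.79 to 3.11% of all FPKM in a library, assembled transcripts included.

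**Figure D1:**
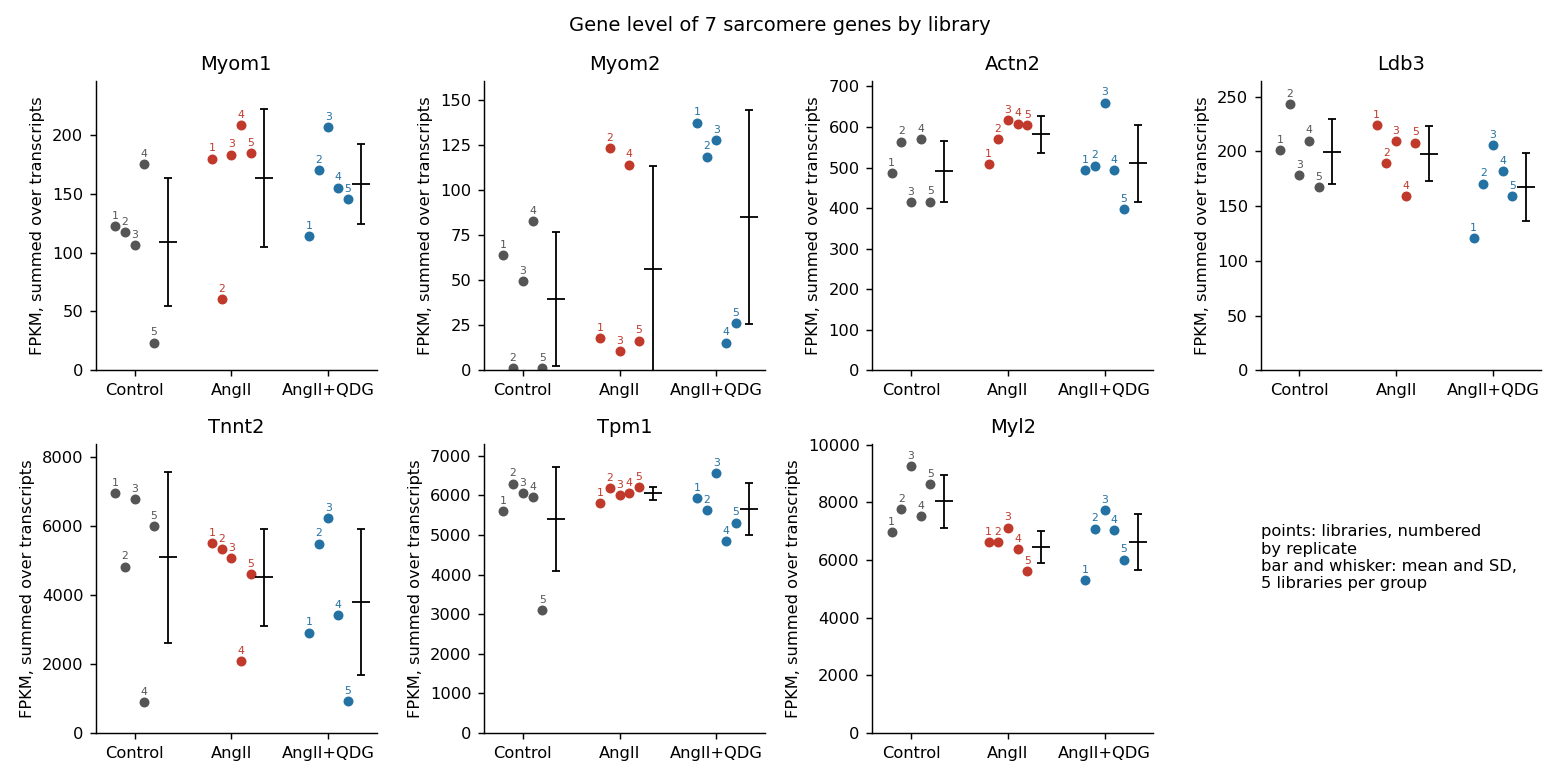
FPKM per gene (vertical axis, starting at 0) in each of the 15 libraries, with the mean and SD of 5 libraries beside each group; whiskers that reach below 0 end at the axis. Groups overlap in every panel, Myom2 falls into high and low libraries in all 3 groups, and Tnnt2 is lowest in Control 4 and AngII+QDG 5.

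None of the 7 genes passed the test in any comparison at the gene level. In AngII against Control 0 of 7 were called, where 13.4% of all genes tested were (11.9% higher and 1.48% lower, limma, Benjamini-Hochberg at 0.05). The direction of the background rested on the scaling: 1458 genes were higher and 181 lower, but 406 and 412 after quantile normalization. Between AngII+QDG and AngII 0 of 7 were called, where 0.0% of all genes were. An unadjusted p below 0.05 was reached there by 0 of the 7 genes and by 4.72% of all genes. Against Control, 0 of 7 were called in AngII+QDG, where 19.4% of all genes were (16.1% higher and 3.31% lower). The libraries of the groups overlapped for each member in each comparison, while 11.2, 1.39 and 14.5% of all genes did not overlap in the order of the comparisons above.

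The members' median change was close to that of all genes in AngII against Control and below it in both comparisons of AngII+QDG. It was 0.21 on the log2(FPKM + 1) scale for AngII against Control, beside 0.20 over all genes tested. Between AngII+QDG and AngII the members' median was -0.10 and that of all genes -0.017. For AngII+QDG against Control they were 0.052 and 0.18. AngII and AngII+QDG share the same Control libraries in these comparisons.

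**Figure D2:**
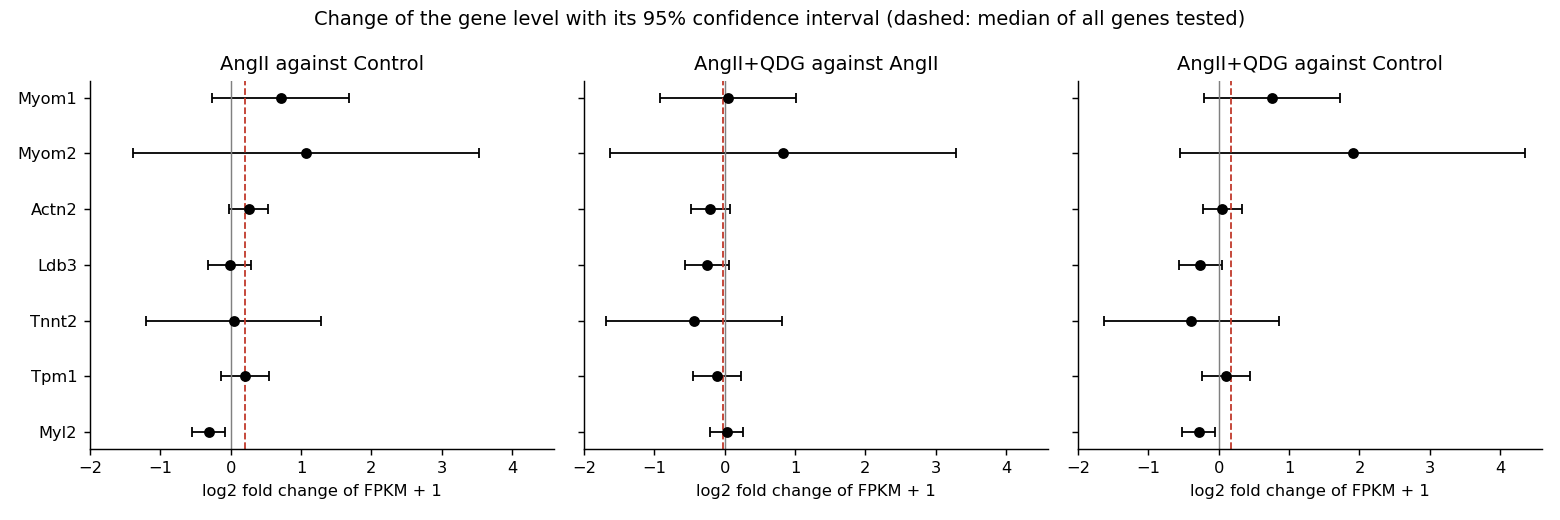
Log2 fold change of FPKM + 1 for each gene (points) with its 95% confidence interval from limma (bars), in the 3 comparisons; the dashed line is the median of all genes tested. Only the Myl2 intervals against Control exclude 0, at -0.31 and -0.28, and the Myom2 intervals are the widest.

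At the M-band, Myom1 codes for myomesin 1, the protein that bridges neighbouring thick filaments in every striated muscle. Its gene lies at chr17:71002633-71126856 (GRCm38, plus strand), and 3 protein-coding transcripts were measured. Control libraries 1 to 5 had 122, 118, 106, 175 and 23.4 FPKM. AngII libraries had 179.9, 60.2, 183, 208 and 184 FPKM, and AngII+QDG libraries 114, 170.2, 207, 155 and 145 FPKM. Control 5 and AngII 2 were low, and the other AngII libraries lay above each Control library. Means were 109 ± 54.6, 163 ± 58.7 and 158 ± 34 FPKM (SD, n = 5 each), a log2 change of 0.71 ± 0.45 (SE) for AngII against Control with an interval of -0.26 to 1.68 (limma adjusted p = 0.297).

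In 13 of 15 libraries at least 92.4% of Myom1 FPKM came from Myom1-203, the form without the exon that codes for the EH segment, a stretch typical of embryonic heart myomesin. That exon is present in Myom1-202 alone among the transcripts measured. It is 294 nt long, coding over its whole length, at chr17:71082203-71082496. It is shown because transcripts that hold it separate 2 libraries from the other 13. Capitals mark the exon and lower case its neighbours in the spliced transcript.
Myom1 exon of Myom1-202: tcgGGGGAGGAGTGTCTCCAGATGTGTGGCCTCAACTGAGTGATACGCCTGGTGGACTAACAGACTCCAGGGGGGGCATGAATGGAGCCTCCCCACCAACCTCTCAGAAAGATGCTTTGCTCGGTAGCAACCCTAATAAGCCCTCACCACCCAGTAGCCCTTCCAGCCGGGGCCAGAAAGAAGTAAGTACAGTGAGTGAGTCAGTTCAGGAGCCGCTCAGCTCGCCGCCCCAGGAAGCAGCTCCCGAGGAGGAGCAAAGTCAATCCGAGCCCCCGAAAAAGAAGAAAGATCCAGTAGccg
Transcripts with this exon held 0.0419 to 6.95% of Myom1 FPKM in the 5 Control libraries. In AngII they held 3.01, 58.3, 3.93, 4.005 and 7.33%, and in AngII+QDG 46.6, 2.52, 3.25, 2.57 and 2.93%. AngII 2 and AngII+QDG 1 thus stood far above the rest, with 35.1 and 53.1 FPKM of Myom1-202 beside 14.7 and 31.7 FPKM of Myom1-203. Myom1-201 was also highest in these libraries, at 10.4 and 29.2 FPKM, and at most 0.915 FPKM in the others. Since single libraries carried the difference, the group means (2.85, 15.3 and 11.6%) did not differ beyond the spread (exact two-sided permutation tests, adjusted p = 0.542, 0.806 and 0.833 over 21 tests, for AngII against Control, AngII+QDG against AngII and AngII+QDG against Control).

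Myom2 codes for myomesin 2, or M-protein, the M-band protein of adult heart and fast skeletal fibres. It lies at chr8:15057653-15133541 and was measured through 1 coding transcript of 5075 nt, with a retained intron form listed for AngII+QDG only. Control libraries had 64.0, 1.26, 49.6, 82.9 and 1.09 FPKM. AngII libraries had 17.7, 124, 10.5, 114 and 16.4 FPKM, and AngII+QDG libraries 138, 119, 128, 15.4 and 26.4 FPKM. Each group held high libraries and low ones with a gap between them. Myom2 spanned 126-fold over all libraries, and 75.9, 11.8 and 8.97-fold within Control, AngII and AngII+QDG. Its coefficient of variation was 93.4, 101 and 69.5% in Control, AngII and AngII+QDG. The 90th percentile over the 931 genes whose mean reached 50 FPKM was 40.7, 28.3 and 28.3%. The log2 changes carried wide intervals, -1.38 to 3.53 for AngII against Control, -1.62 to 3.28 for AngII+QDG against AngII and -0.55 to 4.36 for AngII+QDG against Control, and each interval holds 0 and reaches beyond 3.

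At the Z-disc, Actn2 codes for alpha-actinin 2, which crosslinks the barbed ends of thin filaments. It lies at chr13:12269426-12340760 on the minus strand, and Actn2-201 carried at least 98.2% of its FPKM in every library. Control libraries had 486, 564, 415, 570.0 and 416 FPKM. AngII libraries had 509, 569, 617, 608 and 605 FPKM, and AngII+QDG libraries 493, 504, 659.8, 494.5 and 398 FPKM. Of the AngII libraries 3 exceeded the highest Control library, and AngII+QDG spanned the Control range. Means were 490.2 ± 75.9, 581 ± 44.5 and 509.9 ± 94.4 FPKM (SD, n = 5 each). The log2 change was 0.26 ± 0.13 (SE) for AngII against Control (limma adjusted p = 0.190) and -0.20 ± 0.13 for AngII+QDG against AngII (limma adjusted p = 0.998). With each library centred on its median the first became -0.0025, so its size rests on the scaling between libraries.

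Ldb3, also called ZASP or Cypher, is a PDZ and LIM domain protein that binds alpha-actinin at the Z-disc. It lies at chr14:34526603-34588682 on the minus strand, and 5 coding transcripts of 1499 to 5119 nt were measured. Control libraries had 201, 243, 178, 209.8 and 167 FPKM. AngII libraries had 224, 189, 209, 159 and 208 FPKM, and AngII+QDG libraries 121, 171, 206, 182 and 159 FPKM. Control and AngII covered almost the same range, and AngII+QDG reached lower. Means were 199.8 ± 29.7, 198 ± 25.0 and 168 ± 31.3 FPKM (SD, n = 5 each), with a log2 change of -0.25 ± 0.14 (SE) for AngII+QDG against AngII (limma adjusted p = 0.998) and -0.26 ± 0.14 against Control (limma adjusted p = 0.216).

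Ldb3 messages come in a form typical of heart and one typical of skeletal muscle. The transcripts measured here were not assigned to either form. Ldb3-203, which holds an exon of 359 nt that Ldb3-207 lacks, was the most abundant, at 57.9, 51.8, 58.2, 64.2 and 45.5% of Ldb3 FPKM in Control. In AngII it held 59.7, 50.4, 53.4, 69.4 and 51.3%, and in AngII+QDG 65.6, 53.2, 45.6, 53.4 and 46.9%. The groups overlapped widely. Means were 55.5 ± 7.10, 56.8 ± 7.89 and 53.0 ± 7.93% (SD, n = 5 each) and did not differ beyond the spread (exact two-sided permutation tests, adjusted p = 0.888, 0.75 and 0.801 over 15 tests, in the order of the comparisons above).

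The level of Ldb3-207 itself was 51.2, 83.4, 67.4, 73.9 and 72.1 FPKM in Control and 44.6, 44.0, 59.4, 47.1 and 56.8 FPKM in AngII. In AngII+QDG it was 37.3, 45.3, 65.9, 41.8 and 42.6 FPKM. It fell in AngII+QDG against Control by 0.58 on the log2 scale (SE 0.16, limma adjusted p = 0.0471), although Control 1 and AngII+QDG 3 overlapped the other group. Leaving out any library other than those 2 in turn ended this call, with adjusted p up to 0.115. Ldb3-202, a long coding form of 2468 nt, was rare, at 0.679, 0.360, 0.683, 1.24 and 0.339 FPKM in Control. It was at 1.84, 2.20, 1.29, 1.63 and 2.06 FPKM in AngII and at 4.09, 1.13, 1.495, 1.31 and 2.19 FPKM in AngII+QDG. It rose in AngII+QDG against Control by 0.82 ± 0.23 (log2, SE, limma adjusted p = 0.0470), and the call held without Control 4 or without AngII+QDG 2 and was lost without any other library. For AngII against Control the change was 0.77 ± 0.23 with no overlap of libraries (limma adjusted p = 0.0789). The 2 longest forms, Ldb3-201 and Ldb3-205, were near or at 0 together in Control 4, AngII 4 and AngII+QDG 1. They reached 12.2 to 20.8 and 21.3 to 30.1 FPKM in Control 2 and the other 4 AngII libraries.

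In the thin filament, Tnnt2 codes for cardiac troponin T, the subunit that ties the troponin complex to tropomyosin. It lies at chr1:135836354-135852260 on the plus strand with 9 transcripts measured. Control libraries had 6958, 4829, 6796, 899 and 5994 FPKM. AngII libraries had 5504, 5337, 5081, 2079.7 and 4617 FPKM, and AngII+QDG libraries 2911, 5497, 6226, 3431 and 927 FPKM. Control 4, AngII 4 and AngII+QDG 5 were the low libraries, 1 in each group. Means were 5095 ± 2492, 4524 ± 1407 and 3798 ± 2118 FPKM (SD, n = 5 each). The log2 change was 0.044 ± 0.58 (SE) for AngII against Control, with an interval of -1.20 to 1.29, and -0.44 ± 0.58 for AngII+QDG against AngII. Without Control 4 the first became -0.51, and with each library centred on its median it was -0.22, so its sign was not stable.

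The low libraries lacked one transcript above all. Tnnt2-201, the main adult form, gave 5940.0, 1473, 5769, 10.2 and 5092 FPKM in Control. It gave 4179, 3360.1, 3678, 779 and 2734 FPKM in AngII, and 1095, 3683, 4304, 959 and 88.3 FPKM in AngII+QDG. Tnnt2-211 was the largest form in Control 2 (2746 FPKM) and in AngII+QDG 1, 4 and 5 (1207, 2001 and 367 FPKM), and Tnnt2-210 in Control 4 (475 FPKM). Tnnt2-209, by contrast, stayed between 84.1 and 259 FPKM in all 15 libraries. The share of Tnnt2-201 was 57.4 ± 39.3, 61.6 ± 15.1 and 42.2 ± 25.7% (SD, n = 5 each) and did not differ between groups beyond the spread (exact two-sided permutation tests, smallest adjusted p = 0.619 over 15 tests).

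**Figure D3:**
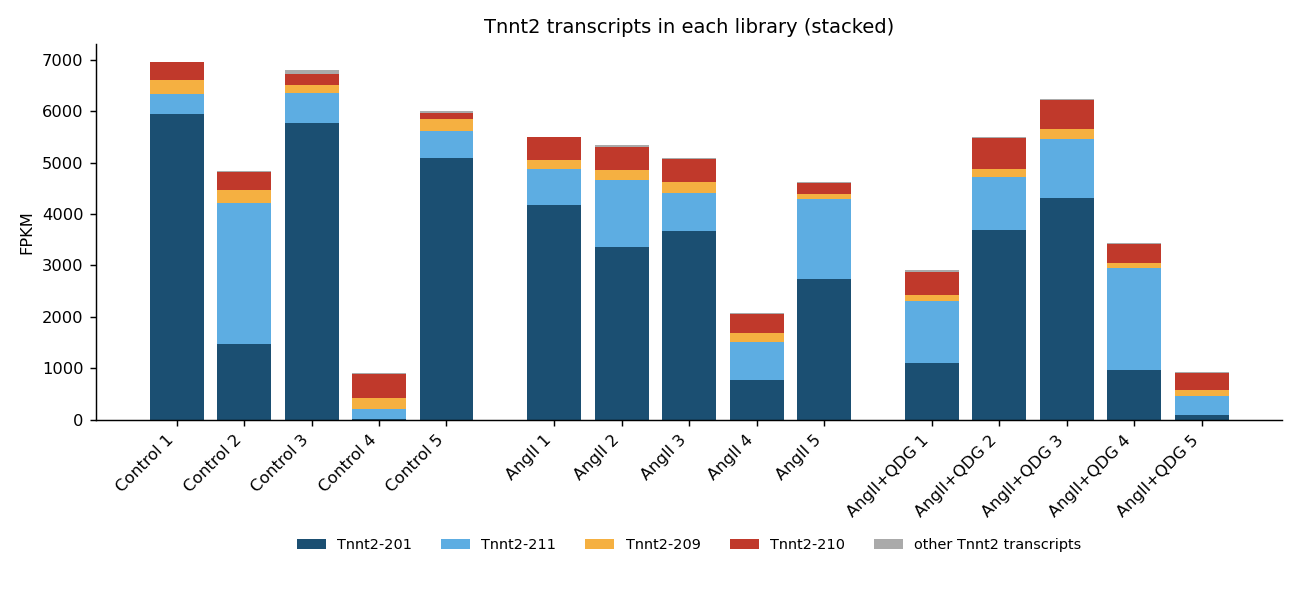
Stacked FPKM of the Tnnt2 transcripts in each library, from 0. The dark blue segment, Tnnt2-201, runs from 10.2 FPKM in Control 4 to 5940.0 FPKM in Control 1, while Tnnt2-210 is the largest segment in Control 4 at 475 FPKM.

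A small acidic exon near the start of Tnnt2 marks the embryonic form of troponin T and is skipped in most adult message. It is 30 nt long, at chr1:135843785-135843814, and is held by Tnnt2-204, Tnnt2-209 and Tnnt2-213. It is shown in capitals because its carrier Tnnt2-209 was the steadiest of the abundant coding forms.
Tnnt2 exon of Tnnt2-209: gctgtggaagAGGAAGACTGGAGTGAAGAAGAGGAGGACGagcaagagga
Transcripts with the exon held 3.74, 5.20, 2.44, 22.5 and 4.14% of Tnnt2 FPKM in Control. They held 3.30, 3.73, 4.22, 9.16 and 2.19% in the AngII libraries and 4.70, 3.08, 3.32, 2.77 and 13.1% in AngII+QDG. The high shares belong to the 3 libraries with little Tnnt2-201. Tnnt2-209 itself stood at 201, 174 and 119 FPKM in them, inside its range elsewhere. Its mean was 219 ± 36.5, 169 ± 41.8 and 139 ± 48.1 FPKM (SD, n = 5 each), and the log2 change of -0.70 ± 0.24 (SE) in AngII+QDG against Control missed the threshold (limma adjusted p = 0.0915).

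The one Tnnt2 transcript that passed the test was Tnnt2-215, annotated as a retained intron. It is a single exon of 3330 nt at chr1:135836390-135839719, and 0 nt of it overlap the exons of Tnnt2-201. Control libraries had 1.77, 1.72, 0.724, 4.18 and 0.585 FPKM. AngII libraries had 8.01, 8.63, 5.24, 4.63 and 3.85 FPKM, and AngII+QDG libraries 15.2, 10.7, 9.05, 7.63 and 8.04 FPKM. Control 4 overlapped AngII, and each AngII+QDG library lay above each Control library. It rose by 1.42 ± 0.31 (log2, SE) in AngII against Control (limma adjusted p = 0.0365) and by 2.09 ± 0.31 in AngII+QDG against Control (limma adjusted p = 0.00465). The second call held with each of the 15 libraries left out. The first was lost without Control 1, 2, 3 or 5 and without AngII 1, 2, 4 or 5. The change from AngII to AngII+QDG was 0.67 ± 0.31 and was not called. Tnnt2-210, a 292 nt retained intron form further along the gene, was far more abundant, at 302 ± 139, 387 ± 99.7 and 464 ± 116 FPKM (SD, n = 5 each), and was not called.

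Tpm1 codes for alpha-tropomyosin, the coiled coil that lies along the thin filament and moves when calcium binds troponin. It lies at chr9:67022590-67049406 on the minus strand with 17 transcripts measured, of which Tpm1-211 was not listed for AngII+QDG. Control libraries had 5609.5, 6297, 6050.4, 5947 and 3108 FPKM. AngII libraries had 5804, 6187, 6008, 6057 and 6205 FPKM, and AngII+QDG libraries 5933, 5617, 6569, 4849 and 5312 FPKM. Control 5 stood apart from the other 14 libraries, and AngII libraries lay within 1.07-fold of each other. Means were 5402 ± 1306, 6052 ± 162 and 5656 ± 648 FPKM (SD, n = 5 each). The log2 change was 0.21 ± 0.16 (SE) for AngII against Control (limma adjusted p = 0.383) and 0.019 without Control 5.

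Tpm1-205 was the main form. It held 92.1, 86.3, 88.2, 83.6 and 93.4% of Tpm1 FPKM in Control. It held 81.3, 81.0, 84.5, 82.7 and 82.8% in the AngII libraries and 78.2, 80.3, 79.9, 91.8 and 79.8% in AngII+QDG. Mean shares were 88.7 ± 4.06, 82.5 ± 1.40 and 82.0 ± 5.55% (SD, n = 5 each). The difference of -6.25 percentage points for AngII against Control had an exact two-sided permutation p of 0.0159 and an adjusted p of 0.238 over 15 tests. Most of the rest was Tpm1-219, a 649 nt processed transcript without a coding biotype, at 479 ± 281, 892 ± 79.1 and 845 ± 371 FPKM (SD, n = 5 each). Of its 649 nt 551 lie in exons of Tpm1-205. Transcripts without a coding biotype held 8.41 ± 4.01, 14.9 ± 1.32 and 14.8 ± 5.87% of Tpm1 FPKM. Within protein-coding transcripts alone the Tpm1-205 share differed by 0.0086 points between AngII and Control. Transcripts with the alternative exon near the start that marks other tropomyosin forms (126 nt, in Tpm1-202, Tpm1-214 and Tpm1-215) held 0.111 to 0.762% of Tpm1 FPKM over the 15 libraries.

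Of the minor Tpm1 transcripts 2 passed the test, both in AngII+QDG against Control. Tpm1-217, a retained intron form of 1123 nt with 549 nt in Tpm1-205 exons, had 0.664, 1.24, 0.316, 1.53 and 0.562 FPKM in Control. It had 5.00, 3.65, 1.61, 1.75 and 2.63 FPKM in AngII and 11.8, 2.58, 1.83, 4.23 and 2.95 FPKM in AngII+QDG. Each library of both AngII groups lay above each Control library. It rose by 1.42 ± 0.37 (log2, SE, limma adjusted p = 0.0361) in AngII+QDG against Control, and the change of 1.05 ± 0.37 in AngII against Control was not called (limma adjusted p = 0.122). The call was lost without Control 1, 2, 3 or 5 and without AngII+QDG 1, 4 or 5. Tpm1-207, a coding form of 962 nt made wholly of Tpm1-205 exons, had 4.15, 4.83, 2.83, 4.58 and 8.78 FPKM in Control. It had 5.77, 11.7, 5.50, 8.18 and 7.38 FPKM in AngII and 12.03, 10.8, 9.93, 7.86 and 7.89 FPKM in AngII+QDG. It rose by 0.88 ± 0.24 in AngII+QDG against Control (limma adjusted p = 0.0447), with Control 5 inside the AngII+QDG range, and the call held only without Control 5, AngII 2 or AngII 3 among the 15 libraries left out in turn.

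On the thick filament, Myl2 codes for the ventricular regulatory light chain of myosin, which tunes crossbridge force when phosphorylated. It lies at chr5:122100951-122113472 on the plus strand with 12 transcripts measured. Control libraries had 6976, 7769, 9263, 7526 and 8626 FPKM. AngII libraries had 6618, 6612, 7119, 6368 and 5602 FPKM, and AngII+QDG libraries 5299.9, 7083, 7739, 7037 and 6009 FPKM. Of the AngII libraries only AngII 3 exceeded the lowest Control library. Means were 8032 ± 909.7, 6464 ± 554 and 6633 ± 969 FPKM (SD, n = 5 each). The log2 change was -0.31 ± 0.11 (SE) for AngII against Control, with an interval of -0.55 to -0.075, an unadjusted p of 0.0131 and an adjusted p of 0.0726 (limma). For AngII+QDG against Control it was -0.28 ± 0.11 (limma adjusted p = 0.0859), and for AngII+QDG against AngII 0.029 ± 0.11 with an interval of -0.21 to 0.26. Relative to the median change of all genes, Myl2 was at -0.51 in AngII and -0.46 in AngII+QDG. With each library centred on its median, the change against Control in AngII+QDG was -0.54 and passed (limma adjusted p = 0.0374).

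One short form of Myl2 without a coding biotype, Myl2-210, passed the test in both comparisons with Control. Of its 467 nt 352 lie in exons of the coding Myl2-203, as do 352 of the 528 nt of Myl2-204. Their values may depend on how shared reads were split, which was not tested. Myl2-210, a processed transcript of 467 nt, had 393, 448, 442, 317 and 572 FPKM in Control. It had 144, 115, 248, 220.2 and 303 FPKM in AngII and 116, 173.5, 268, 209 and 165 FPKM in AngII+QDG. Both AngII groups lay wholly below Control. It fell by 1.13 on the log2 scale in AngII (SE 0.27, limma adjusted p = 0.0448) and by 1.24 in AngII+QDG (SE 0.27, limma adjusted p = 0.0179), both against Control. The second call held with each of 15 libraries left out. The first was lost without Control 1, 2, 3 or 5, without AngII 1, 2 or 4, and without AngII+QDG 2, 4 or 5, which share the estimate of the spread. Myl2-204, the other abundant processed transcript, had 524 ± 262, 248 ± 60.6 and 266 ± 97.5 FPKM (SD, n = 5 each) and was not called (limma adjusted p = 0.0766 and 0.0689).

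As a share, transcripts without a coding biotype made up 11.6, 11.8, 9.59, 8.96 and 18.1% of Myl2 FPKM in Control. They made up 5.67, 4.49, 7.96, 7.31 and 11.1% in the AngII libraries and 5.92, 5.39, 8.21, 8.74 and 6.52% in AngII+QDG. AngII+QDG did not overlap Control on this measure. The difference of -5.07 percentage points had the smallest p that 5 against 5 libraries allow, 0.00794 (exact two-sided permutation test), and an adjusted p of 0.167 over 21 tests. Of the 2 main coding forms, Myl2-203 was at 3395 ± 448, 2965 ± 194 and 3127 ± 324 FPKM in Control, AngII and AngII+QDG, and Myl2-201 at 3340.2 ± 626, 2715 ± 659.9 and 2585 ± 485 FPKM (SD, n = 5 each).

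**Figure D4:**
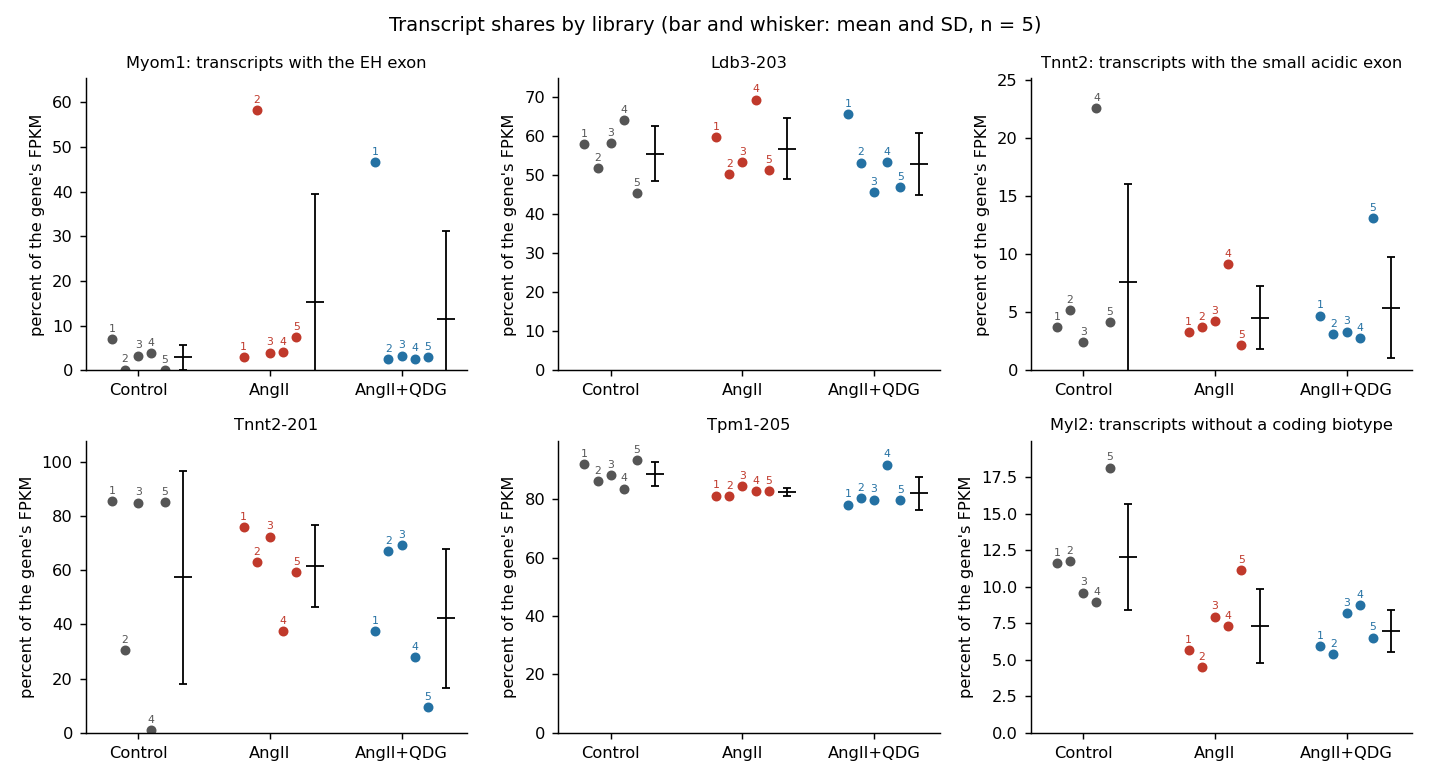
Share of a gene's FPKM (vertical axis, percent, from 0) held by the named transcripts or by transcripts with the named exon, in each library, with mean and SD of 5 libraries; whiskers that reach below 0 end at the axis. AngII 2 and AngII+QDG 1 stand apart for the Myom1 exon at 58.3 and 46.6%, and Control 4 and AngII+QDG 5 for the Tnnt2 exon at 22.5 and 13.1%.

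Counted over the 47 transcripts of the members, few passed. In AngII against Control 1 was higher (Tnnt2-215) and 1 lower (Myl2-210), beside 2.5% of all transcripts tested called in either direction (2.23% higher and 0.274% lower). Between AngII+QDG and AngII 0 of 47 were called, beside 0.0105% of all transcripts. An unadjusted p below 0.05 was reached by 3 of 47 there and by 4.66% of all transcripts. AngII+QDG against Control gave 4 higher (Tnnt2-215, Tpm1-217, Tpm1-207 and Ldb3-202) and 2 lower (Myl2-210 and Ldb3-207), beside 6.91% of all transcripts (5.93% higher and 0.976% lower). Median changes of the members' transcripts were 0.22, 0.066 and 0.28 in the order given. Of the 3 retained intron transcripts of the members tested, 2 were called higher in AngII+QDG against Control. With the balance of short to long transcripts as a covariate none of the 8 calls held (limma). That covariate also left 0 of all genes called in either comparison with Control. Control lay apart from both other groups on this balance, so the fit cannot fully separate it from the groups. Without Control 3 and Control 5 the call of Tnnt2-215 in AngII+QDG against Control held alone. Over all 3426 retained intron transcripts 4.70% were called higher in AngII+QDG against Control, and 7.22% of 14956 protein-coding ones.

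**Figure D5:**
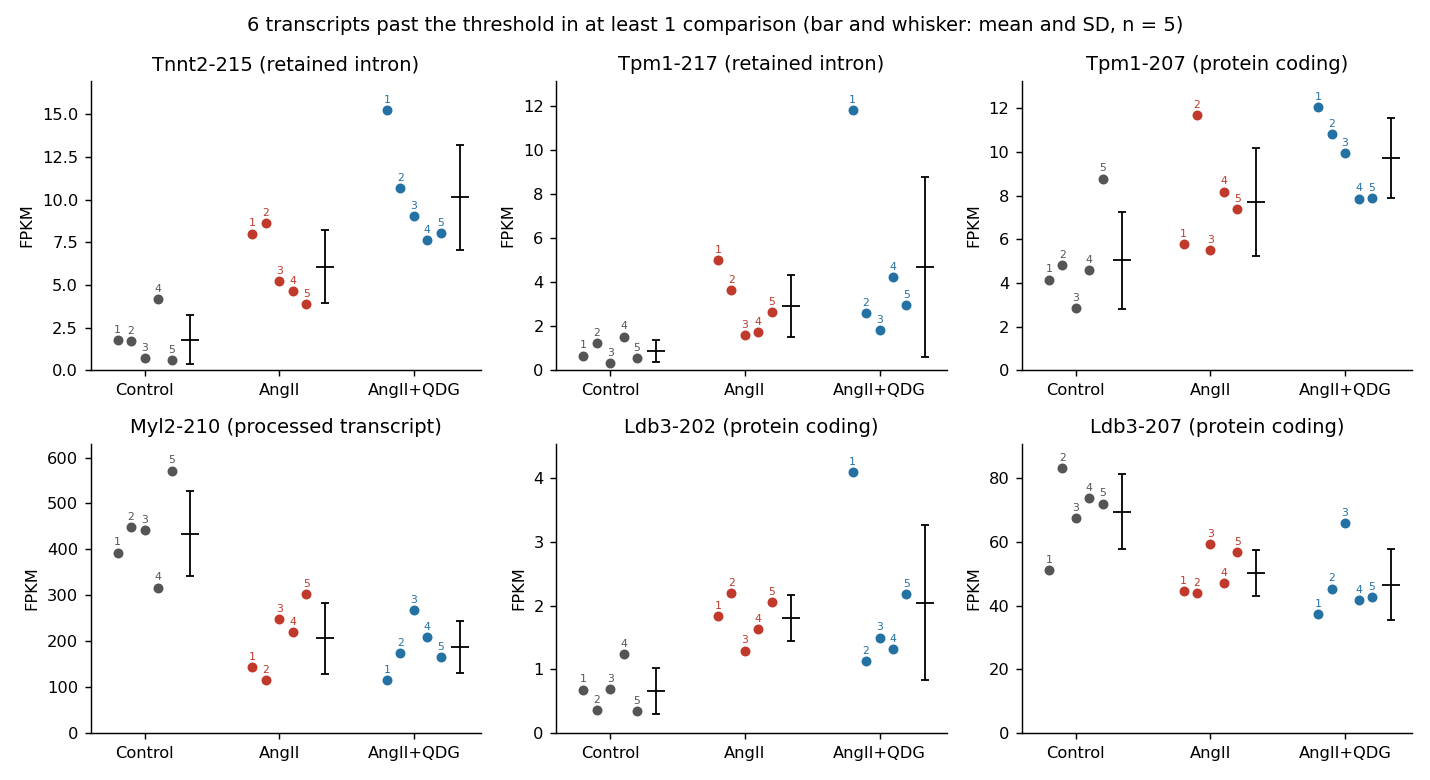
FPKM (vertical axis, from 0) of the 6 transcripts that passed the test in at least 1 comparison, in each library, with mean and SD of 5 libraries. Tnnt2-215 and Tpm1-217 lie higher in AngII+QDG than in each Control library, and Myl2-210 lies lower in both AngII groups than in each Control library.

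Some other genes of the same structures passed the test. In the Z-disc list 4 of 22 tested genes rose and 0 fell in AngII against Control, where 11.9% of all genes were called higher, and the list's median was 0.40 beside 0.20 over all genes. Ankrd1, a titin-binding ankyrin repeat protein induced by stretch, was at 349 ± 97.2, 797 ± 178 and 809 ± 208 FPKM (SD, n = 5 each) and rose by 1.202 ± 0.22 (log2, SE, limma adjusted p = 0.0112). Flnc, the muscle filamin, rose by 1.32 ± 0.29 (limma adjusted p = 0.0189), and Cavin4, a caveolar protein, by 0.94 ± 0.16 (limma adjusted p = 0.00824). Capza2, part of the capping protein at the barbed end, rose by 0.45 ± 0.12 (limma adjusted p = 0.0288). Of these 4, Ankrd1 and Capza2 lost the call without Control 3 and Control 5. In the same list 5 of 22 rose and 0 fell in AngII+QDG against Control, where 16.1% of all genes were called higher.

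Several thin filament genes outside the members passed as well. Of 16 tested, 8 rose and 0 fell in AngII against Control, with a median of 0.58, and 7 rose and 0 fell in AngII+QDG against Control, beside 11.9 and 16.1% of all genes called higher. Without Control 3 and Control 5 these counts were 2 and 6, and with quantile normalization 4 and 9. Lmod2, the leiomodin that lengthens thin filaments at their pointed end, was at 134 ± 27.1, 242 ± 36.9 and 324 ± 75.1 FPKM (SD, n = 5 each). It rose by 0.86 ± 0.18 in AngII (limma adjusted p = 0.0166) and by 1.26 ± 0.18 in AngII+QDG (limma adjusted p = 0.00167), both against Control. Tmod3, a pointed-end cap, rose by 0.87 ± 0.15 in AngII against Control (limma adjusted p = 0.00824), and Cfl2, the muscle cofilin that severs actin, by 0.51 ± 0.12 (limma adjusted p = 0.0202). Xirp1, a Xin repeat protein of the intercalated disc, rose by 1.14 ± 0.27 (limma adjusted p = 0.0217). The calls of Lmod2 and Xirp1 in AngII were lost without Control 3 and Control 5 (limma adjusted p = 0.0795 and 0.0746). Lmod3 rose in AngII+QDG against Control by 0.67 ± 0.14 (limma adjusted p = 0.00675).

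Among M-band and titin partners 1 of 14 rose in AngII against Control, where 11.9% of all genes were called higher. This was Ankrd23, an ankyrin repeat protein that binds titin, from 172 ± 37.9 to 375 ± 73.9 FPKM (SD, n = 5 each; 1.12 ± 0.20, limma adjusted p = 0.00965). Against Control in AngII+QDG 3 of 14 rose and 1 fell, where 16.1% of all genes were called higher and 3.31% lower. Cmya5, Ankrd23 and the myosin chaperone Unc45b rose, and the ubiquitin ligase Trim54 fell by 0.32 on the log2 scale (limma adjusted p = 0.0358). None of these 4 calls, nor that of Ankrd23 in AngII, held without Control 3 and Control 5. Of 11 thick filament and light chain genes 2 rose in AngII against Control, Ppp1cb (0.49 ± 0.14, limma adjusted p = 0.0382) and Mybpc2 (0.68 ± 0.21, limma adjusted p = 0.0484), and 1 in AngII+QDG against Control, Ppp1cb again (0.62 ± 0.14, limma adjusted p = 0.00977). Of all genes 11.9 and 16.1% were called higher in these comparisons. Both calls in AngII were lost without Control 3 and Control 5 (limma adjusted p = 0.0819 and 0.131), and 0 of 11 were called there with quantile normalization. Mybpc2 is also the skeletal muscle marker given above. In the heart, Ppp1cb codes for the catalytic part of the phosphatase that acts on the light chain.

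Splicing regulators of sarcomere genes were followed because several are known to act on messages of the members. Of 13 tested, 2 rose in AngII against Control, where 11.9% of all genes were called higher. These were Qk (0.99 ± 0.20, limma adjusted p = 0.0148) and Srsf10 (0.79 ± 0.19, limma adjusted p = 0.0239). Both calls were lost without Control 3 and Control 5 (limma adjusted p = 0.0746 and 0.120), and 1 of 13 was called with quantile normalization. AngII+QDG against Control had 7 that rose and 0 that fell, with a list median of 0.82 beside 0.18 over all genes, and 5 were called without Control 3 and Control 5. Over all genes 16.1% were called higher. Rbfox1, a splicing factor of heart and brain, was at 0.851 ± 0.811, 1.80 ± 1.5 and 4.47 ± 1.29 FPKM (SD, n = 5 each). It rose by 1.66 ± 0.39 in AngII+QDG against Control (limma adjusted p = 0.0115), while Rbfox2 rose by 1.18 ± 0.22 (limma adjusted p = 0.00437) and Celf1, which acts on the Tnnt2 embryonic exon, by 0.82 ± 0.17 (limma adjusted p = 0.00655). Rbfox1 lost its call without Control 3 and Control 5 (limma adjusted p = 0.0563). Of cardiac transcription factors 0 of 11 were called in AngII against Control. Mrtfb rose in AngII+QDG against Control by 0.65 ± 0.15 (limma adjusted p = 0.00921) and Nkx2-5 fell by 0.40 on the log2 scale (limma adjusted p = 0.0225). Mrtfb lost its call without Control 3 and Control 5 (limma adjusted p = 0.0541). No gene of any of these 6 lists was called in AngII+QDG against AngII.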

How the data were processed

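The authors deposited 1 table per library with a value per transcript, read here as FPKM. The headers do not state the unit. It was inferred from the values, since FPKM times length fell on whole steps of each library for 97.0 to 97.2% of transcripts (within 0.1). Per the submitters' processing notes, GRCm38 and limma were used. No source used here names the aligner or the quantifier. GENCODE M21 gave names to 24756 of the 24789 Ensembl transcripts. A further 8634 assembled transcripts (7.72 to 10.7% of FPKM) have none and are in no gene sum. The transcript tests took only transcripts, named or assembled, that were listed in all 15 libraries. Reads shared between transcripts of a gene may have been split between them, so single transcripts are less certain than gene sums.

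Named transcripts were summed to genes. A feature entered the tests if 5 or more libraries reached 0.5 FPKM. Values on the log2(FPKM + 1) scale were fitted by limma 3.58.1 under R 4.3.3 (intensity trend, robust variance, statmod 1.5.0) over all 15 libraries, with 12 residual degrees of freedom and Benjamini-Hochberg adjustment at 0.05. This scale understates changes of low features. Shares were compared by exact permutation tests, 15 for the main transcript of each gene and 21 for exon and noncoding shares, the latter chosen after transcript values were seen. The p-values measure the spread between these samples, which the series' design text gives as 5 mice a group. No 2 libraries held identical values. On simulated gene values with independent noise, limma recovered 69, 61 and 60% of changes of 1 on the log2 scale. For changes of 2 it recovered 92, 93 and 93%. Both are in the order AngII against Control, AngII+QDG against AngII and AngII+QDG against Control. Smaller changes and the transcript fit were not simulated. Python 3.11.15 with pandas 2.3.3, numpy 2.4.6 and, for plots, matplotlib 3.10.9 did the rest.

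The members and gene lists were chosen with earlier results of these data known. Named were the members, their transcripts of at least 1 FPKM in a group (minor ones by range or not at all) and, per list and comparison, up to 4 called genes with the smallest p. A planned search for genes most like Ttn was not run, as Ttn was not analysed here. Exon sequences and coordinates are from GENCODE M21 transcripts. Alternatives covered pseudocount 0.1, filters, median and quantile scaling, 2-group fits, a replicate block, array weights, transcripts summed, length balance, voom on recovered fragments and libraries left out. The replicate numbers did not pair the samples (correlations of deviations -0.096 to 0.088).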

Additional observations from a re-analysis of the deposited data

Results flagged for a closer look

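In 18 cases the highest or lowest of the 5 libraries of a group lay farther from its nearest neighbour than a gap test allows at the 95% level, out of 75 groups tested. Chance flags about 1 in 20 groups, and the shares of a gene are not independent of each other. Gene levels were set apart in 3 cases. Myom1 was low in AngII 2 (60.2 FPKM, others 179.9 to 208 FPKM), Tnnt2 was low in AngII 4 (2079.7 FPKM, others 4617 to 5504 FPKM) and Tpm1 was low in Control 5 (3108 FPKM, others 5609.5 to 6297 FPKM). Of the called transcripts, Ldb3-207 was high in AngII+QDG 3 (65.9 FPKM) and Tpm1-217 was high in AngII+QDG 1 (11.8 FPKM).

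The other 13 cases were isoform shares. Myom1-203 was low, at 24.4% of Myom1 FPKM in AngII 2 and 27.8% in AngII+QDG 1, where transcripts with the EH exon held 58.3 and 46.6%. Transcripts with the small Tnnt2 exon held 22.5% in Control 4 and 13.1% in AngII+QDG 5, and Tnnt2 transcripts without a coding biotype held 53.3 and 37.3% there. In AngII+QDG 4 Tpm1-205 was high at 91.8% and Tpm1 transcripts without a coding biotype low at 4.32%. Transcripts with the Tpm1 upstream exon were high in Control 2 at 0.581%. Myl2-203 was low in Control 5 at 33.3% and high in AngII+QDG 1 at 53.0%.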

How the results depend on the processing

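Precision is limited by the spread between 5 libraries a group and, for transcripts near 1 FPKM, also by depth. No member gene was called under any alternative except median scaling, where 2 were (Myl2 and Ldb3, in AngII+QDG against Control). Leaving out 1 library gave 0 to 0 called members in each comparison. Signs of small changes turned with scaling or single libraries, and the cause was not tested.

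Over all genes in AngII against Control, 1639 calls became 818 with quantile normalization, 1074 with median scaling (360 higher, 714 lower), 317 with only the 2 groups, 861 with each library's length trend removed, 0 with a covariate for the balance of short to long transcripts and 97 without Control 3 and Control 5. Leaving out 1 library gave 316 (without AngII 2) to 2488 (without Control 4), and 474 to 982 without Control 2, 3 or 5 or AngII 1, 4 or 5. Between AngII+QDG and AngII the count was 1 with pseudocount 0.1, array weights, the covariate or voom, and 0 to 1 with 1 library left out. In AngII+QDG against Control, 2377 calls became 1541 with at least 1 FPKM in every library, 1448 with 2 groups, 1568 with the length trend removed, 0 with the covariate and 1202 without Control 3 and Control 5, and 1452 (without AngII+QDG 1) to 3022 with 1 library left out. The split of 1971 higher and 406 lower became 983 and 999 with quantile normalization and 790 and 1622 with median scaling.

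The replicate block gave 516, 0 and 1857 calls over all genes in the order above, and 0, 0 and 3 member transcripts. The replicate numbers did not pair the samples, since 1 of 15 libraries correlated best with its own number.

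Member transcripts called in AngII against Control went from 2 to 1 with quantile normalization or the length trend removed, to 0 with 2 groups, the covariate or without Control 3 and Control 5, and to 0 to 4 with 1 library left out (4 without Control 4, 0 without any other Control library or AngII 1, 2 or 4, and 1 without AngII 5 or AngII+QDG 2, 4 or 5). That count was 0 to 0 from AngII to AngII+QDG. In AngII+QDG against Control they went from 6 to 3 with quantile normalization or array weights, 2 with 2 groups, 0 with the covariate, 1 without Control 3 and Control 5, and 2 to 6 with 1 library left out (2 without Control 2 or 3 or AngII+QDG 1, 4 or 5, and 3 without Control 1 or AngII 1, 4 or 5).

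Changes that turned sign were these (log2). In AngII against Control, median scaling gave Actn2 -0.0025, Tnnt2 -0.22 and Tpm1 -0.051, array weights gave Tnnt2 -0.072, removal of the length trend gave Tnnt2 -0.016, quantile normalization gave Ldb3 0.017 and voom gave Ldb3 0.16. The covariate gave Myom2 -1.36, Ldb3 0.021, Tpm1 -0.076, Myl2 0.063 and Tpm1-217 -0.065. From AngII to AngII+QDG the covariate gave Myom1 -0.012 and Ldb3-202 -0.021, and voom gave Ldb3-202 -0.0018. In AngII+QDG against Control, median scaling gave Actn2 -0.21 and Tpm1 -0.16, array weights gave Actn2 -0.0020 and Tpm1 -0.040, coding transcripts alone gave Tpm1 -0.0025, and leaving out Control 3 and Control 5 gave Actn2 -0.098, Tnnt2 0.022 and Tpm1 -0.079. The covariate gave Myom2 -0.78, Actn2 -0.16, Tnnt2 1.22, Tpm1 -0.21 and Myl2 0.13. Shares turned sign for Tpm1-205 among coding transcripts (0.0086 points, AngII against Control) and, without Control 3 and Control 5, for Ldb3-203 (-1.12, AngII against Control), Tnnt2-201 (3.24) and noncoding Tnnt2 (-4.98, both AngII+QDG against Control).

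With 1 library left out, 18 gene, 4 transcript and 32 share values turned sign. In AngII against Control the range was -0.072 to 0.065 for Ldb3 and -0.51 to 0.30 for Tnnt2 (log2). Between AngII+QDG and AngII it was -0.28 to 0.17 for Myom1, -0.70 to 0.0072 for Tnnt2, -0.030 to 0.11 for Myl2, -0.15 to 0.16 for Ldb3-202 and -0.30 to 0.048 for Myl2-210. In AngII+QDG against Control it was -0.046 to 0.14 for Actn2, -0.94 to 0.051 for Tnnt2 and -0.086 to 0.17 for Tpm1. Shares (percentage points) in AngII against Control ran from -1.81 to 3.49 for Ldb3-203, -9.84 to 11.2 for Tnnt2-201, -4.38 to 0.642 for the Tnnt2 exon and -7.49 to 5.32 for noncoding Tnnt2. From AngII to AngII+QDG they ran from -12.2 to 15.7 for Myom1-203, -12.5 to 7.001 for the Myom1 exon, -2.92 to 0.490 for Tpm1-205, -0.180 to 3.52 for Myl2-203, -1.05 to 2.04 for the Tnnt2 exon, -0.0708 to 0.0857 for the Tpm1 exon, -1.07 to 0.596 for noncoding Myl2 and -0.994 to 2.51 for noncoding Tpm1. In AngII+QDG against Control they ran from -0.0361 to 10.97 for the Myom1 exon, -4.14 to 1.52 for the Tnnt2 exon and -2.34 to 12.5 for noncoding Tnnt2.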
